A study of Mus musculus with 2 samples.

Results

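The annexins are a family of proteins that bind phospholipid membranes in a calcium-dependent manner. The 10 annexin genes Anxa1, Anxa2, Anxa3, Anxa4, Anxa5, Anxa6, Anxa7, Anxa8, Anxa9 and Anxa11 were taken from 31253 genes by their symbols, after the transcript values of each gene were added up. Their levels were compared between cultured mouse neural retinal progenitor cells (mNRPCs) and mouse retina tissue. Both libraries came from the C57BL/6 strain, and there was 1 library per group. The mNRPCs (sample name 427NR-P24) had been isolated from adult mouse retina and expanded to passage 24. The study grew its mNRPCs in a chemically defined medium with bFGF, a growth factor, and CHIR99021, which blocks a kinase of the Wnt pathway, but the labels of this library do not name these agents. The retina library (sample name C57) was from tissue with no treatment named, and the age of its donor was not given in the sources used here. The mNRPC line stands for a single culture. Without replicates, differences have no measured replicate error here, and no p-value was calculated.

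Each annexin has a conserved core of repeats that carries the calcium sites and docks on acidic lipids, above all phosphatidylserine, and an N-terminal tail that differs between members and binds partners such as S100 proteins. Through these contacts annexins take part in membrane repair, vesicle traffic and the link between membrane and actin. In the retina, phosphatidylserine is also the signal by which shed outer segment tips of photoreceptors are taken up by the pigment epithelium.

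Values were FPKM, in which the fragments of a transcript are divided by its length and by the depth of the library, so that levels can be compared between genes of different length. The depth estimated from the lowest values was 6.50e+06 fragments for mNRPCs and 5.04e+06 for retina. The interval given with a level or a fold is a 95% Poisson or exact binomial interval from estimated fragments, and covers counting error only. A level at or under 3 estimated fragments was treated as not detectable. Where a library had 1 to 3 fragments, the ratio is given with its interval, and below 1 fragment as a bound against the level of 3 fragments. The log2 ratio is log2 of (mNRPC FPKM + 1)/(retina FPKM + 1), and it gives too small a change for weakly expressed genes.

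The libraries were checked against markers of their labels. Rod genes, a list of 10, summed to 21547 FPKM in retina and 8.56 FPKM in mNRPCs. Of 8 retinal progenitor markers, 3 were at least 2-fold higher in mNRPCs, 3 lower and 2 within 2-fold, and Rax was listed at 0 in mNRPCs. Defining genes of endothelium (6 genes, 0.132 FPKM in sum), microglia (7 genes, 1.23 FPKM) and pigment epithelium (6 genes, 0.305 FPKM) were near 0 in mNRPCs, with 3, 5 and 2 genes of these lists at 0. In retina these lists summed to 39.4, 6.13 and 269 FPKM. Most of the endothelium sum in retina was Kdr (29.5 FPKM). Most of the pigment epithelium sum was Rlbp1 (202 FPKM), which is also counted among the Müller glia markers. Müller glia markers (7 genes) summed to 54.1 FPKM in mNRPCs and 1937 in retina. Fibroblast markers (6 genes) summed to 455 FPKM in mNRPCs and 5.63 in retina, with nearly all of the mNRPC sum on Col3a1 (450 FPKM) and Lum listed at 0 in both libraries. Pericyte markers (5 genes) summed to 4.50 and 10.7 FPKM, with 3 of the 5 at 0 in mNRPCs. Among these, Pdgfrb was higher in mNRPCs (4.49 and 1.24 FPKM, 3.63-fold, 2.47 to 5.38), while Rgs5 was listed at 0 in mNRPCs against 8.16 FPKM in retina. The part of these cell types in the annexin levels was not tested. In bulk RNA, a gene that is lower in retina because fewer cells express it cannot be told apart from one with less RNA per cell.

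Promoter sequences are shown first for Anxa1, Anxa2 and Anxa5, the annexins with the highest levels in mNRPCs, and for Anxa7, which had the smallest fold among them. Each run is the 250 bases before a RefSeq transcription start (assembly GRCm38.p6), read along the gene. Capitals mark matches on either strand to the TATA box (TATAAA), the GC box (GGGCGG), the CCAAT box (CCAAT), the AP-1 site (TGANTCA), the TEAD site (GGAATG) or the TCF/LEF site (CTTTGAT).
Anxa1, chr19:20390672-20390921, minus strand: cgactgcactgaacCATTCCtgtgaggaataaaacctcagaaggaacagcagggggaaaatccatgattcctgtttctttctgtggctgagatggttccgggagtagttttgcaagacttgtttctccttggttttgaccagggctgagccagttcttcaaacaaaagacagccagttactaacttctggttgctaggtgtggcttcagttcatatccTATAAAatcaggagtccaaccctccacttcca
Anxa2, chr9:69453433-69453682, plus strand: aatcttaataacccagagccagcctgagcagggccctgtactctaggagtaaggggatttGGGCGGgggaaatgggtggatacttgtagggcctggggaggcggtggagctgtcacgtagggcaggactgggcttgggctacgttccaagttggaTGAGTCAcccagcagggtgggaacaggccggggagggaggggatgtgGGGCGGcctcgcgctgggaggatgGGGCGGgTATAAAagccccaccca
Anxa5, chr3:36475888-36476137, minus strand: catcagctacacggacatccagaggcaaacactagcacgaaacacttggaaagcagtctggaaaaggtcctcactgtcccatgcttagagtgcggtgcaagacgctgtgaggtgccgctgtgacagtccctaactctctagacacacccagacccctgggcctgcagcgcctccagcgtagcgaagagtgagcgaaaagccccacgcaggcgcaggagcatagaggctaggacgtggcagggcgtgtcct
Anxa7, chr14:20479942-20480191, minus strand: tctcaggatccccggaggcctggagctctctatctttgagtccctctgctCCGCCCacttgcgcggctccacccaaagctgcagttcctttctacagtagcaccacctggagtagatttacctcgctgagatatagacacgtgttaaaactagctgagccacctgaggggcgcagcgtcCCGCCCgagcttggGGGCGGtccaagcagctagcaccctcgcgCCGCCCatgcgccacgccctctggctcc

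The windows differed in their core elements. Anxa2 held a TATA box 17 bases before the start, 3 GC boxes and 1 AP-1 match from 95 to 89 bases before it. Anxa1 held a TATA box 32 bases before the start and a TEAD match on the opposite strand 236 bases before it. The Anxa7 window held 4 GC boxes and no TATA box, and Anxa7 has another annotated start in the same table. None of the 6 motifs was found in the Anxa5 window. The TATA letters occurred in 12.4% of all 32851 promoter windows, the GC box in 32.7%, the CCAAT box in 33.8%, the AP-1 letters in 6.75%, the TEAD letters in 12.6% and the TCF/LEF letters in 3.21%. The Anxa1 window had 2 CpG dinucleotides, Anxa2 9, Anxa5 13 and Anxa7 16, against a median of 6 over all windows. A match describes letters only. In all, 8 of the 10 members had at least 1 window, and Anxa3 and Anxa6 had no entry.

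The annexins as a group were far higher in mNRPCs. The 10 genes summed to 2291 FPKM in mNRPCs and 112.6 FPKM in retina, 20.3-fold apart. The family took up 0.371% of all FPKM in mNRPCs but 0.0261% in retina, a 14.3-fold difference. Taking shares of the total is itself a scaling, to the same sum of FPKM, and it depends on what the total holds. Without the rod genes in the total, the shares were 0.371% in mNRPCs and 0.0274% in retina. Of the 10 members, 9 reached 1 FPKM, in mNRPCs and in retina alike, and Anxa8 did so in neither. All 9 were at least 2-fold higher in mNRPCs and none was lower, where 24.5% of 13780 genes compared were higher and 30% were lower. At 4-fold, 7 members were higher against a background of 11.2%, and at 16-fold 5 members against 2.49%. None of the members was 4-fold or 16-fold lower, where 14.1% and 3.9% of genes were. The median log2 ratio of these 9 members was 4.18, and that of all genes compared was −0.12.

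**Figure D1:**
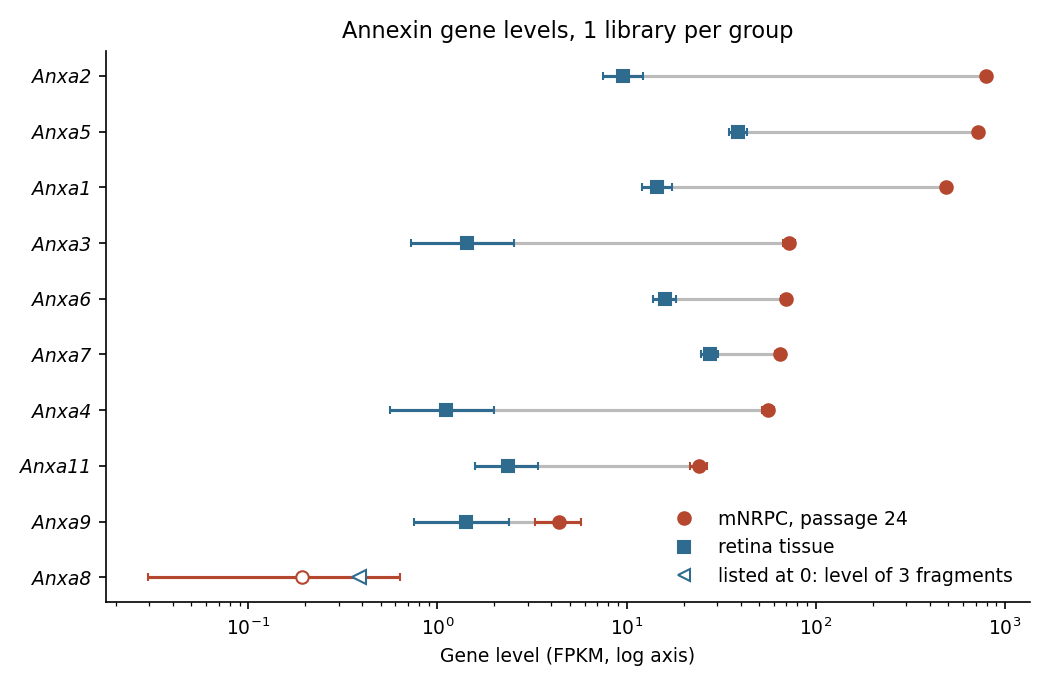
FPKM of each annexin gene on a log axis in the mNRPC library (circles) and the retina library (squares), with 95% counting intervals and 1 library per group. Of the 10 genes 9 lie higher in mNRPCs, from Anxa2 (792.8 against 9.62 FPKM) to Anxa9 (4.36 against 1.41 FPKM), and Anxa8 (open circle, under 3 fragments) is listed at 0 in retina, where the triangle marks the level of 3 fragments.

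Anxa2, whose protein forms a complex with S100A10 at the plasma membrane and binds tissue plasminogen activator and plasminogen, was the highest annexin in mNRPCs. It was at 792.8 FPKM in mNRPCs (interval 774.9 to 811.0) and at 9.62 FPKM in retina (7.50 to 12.2). The mNRPC level was 82.4-fold higher (interval 65.2 to 106), and the log2 ratio of 6.22 stood at rank 41 of the 13780 genes compared. By level, Anxa2 was at rank 112 of 11076 detected genes in mNRPCs and at rank 6851 of 12639 in retina.

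Anxa5, the gene of the protein widely used to stain phosphatidylserine on dying cells, was abundant in both libraries. It was at 718 FPKM in mNRPCs (703 to 734) and at 38.7 FPKM in retina (34.7 to 43.1), where it was the highest annexin. The mNRPC level was 18.5-fold higher (16.6 to 20.7), with a log2 ratio of 4.18. The fold of Anxa5 was smaller than that of Anxa2, and its retina level was higher.

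Anxa1 encodes a glucocorticoid-induced protein that limits inflammation through formyl peptide receptors. Its level was 489 FPKM in mNRPCs (476 to 503) and 14.5 FPKM in retina (12.02 to 17.28). It was 33.8-fold higher in mNRPCs (28.2 to 40.8), and its log2 ratio was 4.99. The levels of Anxa1, Anxa2 and Anxa5 in mNRPCs were all far above that of the next member, Anxa3.

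Anxa3 and Anxa4 were close to the limit of detection in retina and well expressed in mNRPCs. Anxa3 was at 72.3 FPKM in mNRPCs (67.2 to 77.7) and at 1.43 FPKM in retina (0.726 to 2.53), which rested on an estimated 11.5 fragments. It was 50.6-fold higher in mNRPCs (29.3 to 106). Anxa4, a gene typical of epithelia, was at 55.9 FPKM in mNRPCs (51.9 to 60.1) and 1.12 FPKM in retina (0.562 to 1.98), on an estimated 11.2 fragments. The fold was 50.1 (28.5 to 103). The log2 ratios of Anxa3 and Anxa4 were 4.92 and 4.75, and the wide intervals of both folds follow from the few retina fragments.

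Anxa11, whose protein has a long disordered tail that binds the calcium sensor ALG-2 and RNA granules, was at 24.1 FPKM in mNRPCs (21.7 to 26.7) and 2.37 FPKM in retina (1.59 to 3.42). The mNRPC level was 10.2-fold higher (6.86 to 15.2), and the log2 ratio was 2.90. Its fold lay between those of Anxa5 and Anxa6.

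Anxa6 and Anxa7 had clearly smaller folds. Anxa6, the largest protein of the family, was at 69.6 FPKM in mNRPCs (65.6 to 73.8) and 15.9 FPKM in retina (13.8 to 18.3). This was 4.36-fold higher (3.75 to 5.10), with a log2 ratio of 2.06. Anxa7, or synexin, which binds the calcium sensor sorcin, was at 64.4 FPKM in mNRPCs (60.8 to 68.1) and 27.5 FPKM in retina (24.9 to 30.4). The fold was 2.34 (2.09 to 2.63) and the log2 ratio 1.20. When both libraries were rescaled to the same sum of FPKM, the log2 ratio of Anxa7 was 0.69, under the 2-fold threshold.

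Anxa9, an unusual annexin with altered calcium sites, was low in both libraries. Its level was 4.36 FPKM in mNRPCs (3.27 to 5.71) and 1.41 FPKM in retina (0.754 to 2.40), a fold of 3.10 (1.70 to 6.33) and a log2 ratio of 1.16. The log2 ratio was 0.75 after rescaling to the same sum and 0.55 with a pseudocount of 5, both under the 2-fold threshold. Anxa8 had a level of 0.192 FPKM in mNRPCs (2.35 estimated fragments) and was listed at 0 in retina. As 3 fragments would be 0.299 FPKM in mNRPCs and 0.386 FPKM in retina, Anxa8 was not detectable at this depth in either library and no fold is given. Of the annexin genes outside the 10, Anxa10 and Anxa13 were listed at 0 in both libraries.

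**Figure D2:**
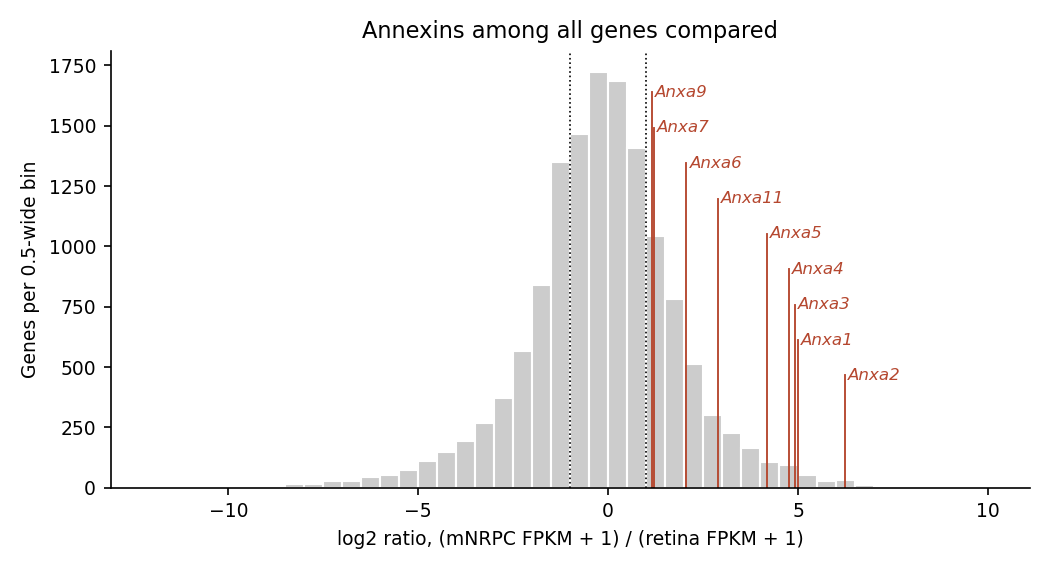
Distribution of the log2 ratio of (mNRPC FPKM + 1) to (retina FPKM + 1) over 13780 genes, as genes per bin, with a line for each of the 9 annexins compared and dotted lines at 2-fold. The annexins lie to the right of the median of all genes (−0.12), from Anxa9 (1.16) and Anxa7 (1.20) to Anxa2 (6.22).

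The order of the members differed between the libraries. In mNRPCs it was Anxa2, Anxa5, Anxa1, Anxa3, Anxa6, Anxa7, Anxa4, Anxa11, Anxa9 and Anxa8. The counting intervals of Anxa3 and Anxa6 overlapped there, as did those of Anxa6 and Anxa7, and all other neighbours were apart. In retina the order was Anxa5, Anxa7, Anxa6, Anxa1, Anxa2, Anxa11, Anxa3, Anxa9, Anxa4 and Anxa8. Here the intervals of Anxa6 and Anxa1, of Anxa1 and Anxa2, and of each neighbouring pair from Anxa11 to Anxa4 overlapped. Anxa2 went from place 5 in retina to place 1 in mNRPCs, and Anxa7 from place 2 to place 6.

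The division of the annexin signal among the genes was therefore unlike in the libraries, and this division is free of the scaling between these. Anxa1, Anxa2 and Anxa5 together held 87.3% of the summed annexin FPKM in mNRPCs and 55.8% in retina. Anxa6 and Anxa7 together held 5.85% in mNRPCs and 38.6% in retina. Anxa2 held 34.6% in mNRPCs against 8.54% in retina, and Anxa7 held 2.81% against 24.4%. The share of Anxa5 was similar, with 31.3% in mNRPCs and 34.4% in retina. Anxa1 held 21.4% and 12.9%.

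**Figure D3:**
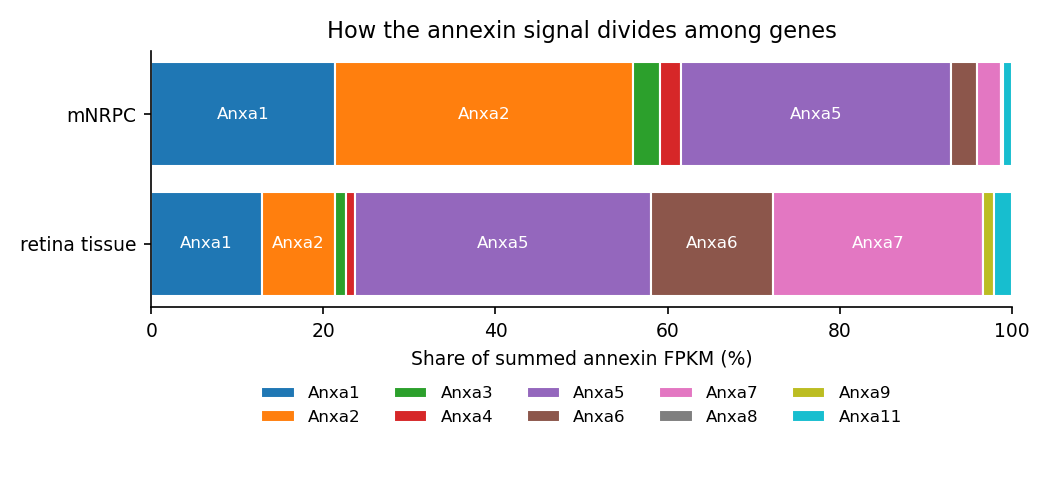
Stacked bars of the share of each gene in the summed annexin FPKM, in percent, for the mNRPC library (2291 FPKM) and the retina library (112.6 FPKM). Anxa2 takes 34.6% in mNRPCs and 8.54% in retina, while Anxa6 and Anxa7 together take 5.85% and 38.6%.

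The transcript values beneath these sums were examined next. The members had 21 transcript rows, of which 19 were higher in mNRPCs, 1 was lower and 1, of Anxa8, was at 0 in both libraries. Any difference was counted here, with no fold or level cut, and rows of the same gene were counted singly. The other Anxa8 row, with 2.35 estimated fragments in mNRPCs, is among the 19. The share of all transcript rows that were higher is not given, so this count has no background to be read against. How reads that fit several transcripts were divided was not given in the sources used here, and single rows are less certain than gene sums. Anxa1, Anxa3 and Anxa5 had 1 row each. The curated rows of Anxa6 kept almost the same proportion, with 46.9% and 53.1% of the gene in mNRPCs and 46.6% and 53.4% in retina.

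The row that was lower in mNRPCs was the predicted transcript of Anxa7. It was at 3.61 FPKM in mNRPCs and 8.60 FPKM in retina, which was 5.61% of Anxa7 in mNRPCs and 31.3% in retina. The main curated row of Anxa7 was at 52.9 and 18.4 FPKM, 2.88-fold higher in mNRPCs. With curated rows only, the log2 ratio of Anxa7 was 1.63. Part of its small fold thus rested on a single predicted row.

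Anxa9 was divided more sharply. A predicted noncoding row held 97.9% of the Anxa9 signal in retina (1.38 FPKM) and 46.1% in mNRPCs (2.01 FPKM), 1.46-fold apart. The curated coding rows of Anxa9 together gave 2.35 FPKM in mNRPCs (28.4 estimated fragments) but 0.0299 FPKM in retina, under 1 fragment. Set against the level of 3 fragments in retina, the coding rows were at least 7.35-fold higher in mNRPCs, which is more than the 3.10-fold of the gene sum. With the highest row of each gene in place of the sum, the log2 ratio of Anxa9 was 0.34.

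Anxa2 and Anxa4 showed a similar picture in retina. The predicted row of Anxa2 held 17.9% of the gene in retina (1.72 FPKM) and 0.910% in mNRPCs (7.21 FPKM), and its curated row was 99.4-fold higher in mNRPCs. The curated row of Anxa4 held 93.6% of the gene in mNRPCs and 36.1% in retina, where 3 rows with at most 4.06 estimated fragments each made up the sum. The main row of Anxa11 held 98.2% in mNRPCs and 94.4% in retina.

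**Figure D4:**
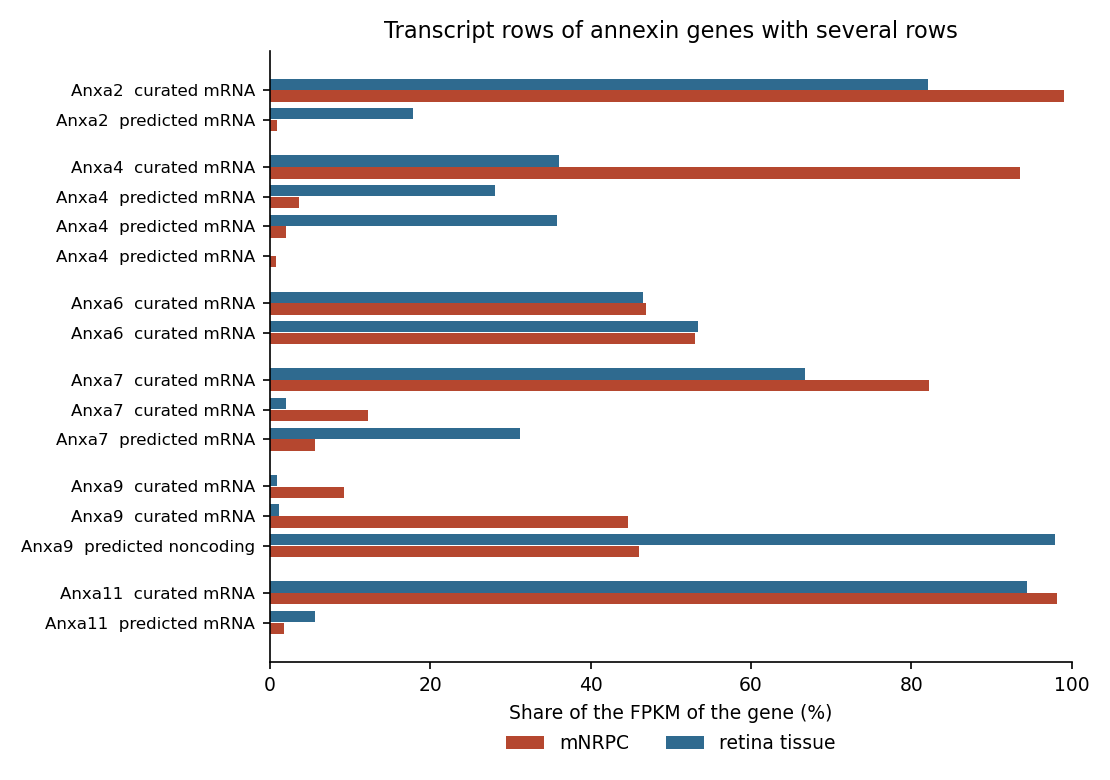
Share of each transcript row in the FPKM of its gene, in percent, in the mNRPC library and the retina library, for the 6 detectable annexins with more than 1 row. The coding rows of Anxa9 held 2.12% of the gene in retina and 53.9% in mNRPCs, whereas the curated rows of Anxa6 kept their proportion.

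Genes that work with annexins were then compared, from lists chosen by function. The S100 partners, small proteins that dock on annexin tails, had 5 of 6 genes at least 2-fold higher in mNRPCs and 1 lower (24.5% and 30% over all genes). Their median log2 ratio was 6.30. S100a10, which encodes the partner of annexin A2, was at 1372 FPKM in mNRPCs and 39.9 FPKM in retina (34.4-fold, 29.0 to 40.9), and S100a11, which encodes a partner of annexin A1, was at 2749 and 13.8 FPKM (199-fold, 142 to 281). The largest log2 ratio was that of S100a4 (8.65), at 3699 and 8.23 FPKM, and S100a6 was at 2838 and 9.96 FPKM. S100a1 was at 122 and 48.5 FPKM, a log2 ratio of 1.31 that became 0.80 after rescaling to the same sum. The lower gene was S100b, with 6.60 FPKM in retina and 0.0875 FPKM in mNRPCs, under 1 fragment, which made it at least 21.2-fold lower in mNRPCs.

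The receptors of annexin A1 were not seen. Fpr1 and Fpr3 were listed at 0 in both libraries, and Fpr2 had 1.22 estimated fragments (0.166 FPKM) in mNRPCs and was listed at 0 in retina. Pla2g4a, the cytosolic phospholipase A2 that annexin A1 is known to restrain, was at 77.9 FPKM in mNRPCs and 0.760 FPKM in retina, 103-fold higher (56.8 to 205). The ligand gene Anxa1 was thus abundant in a culture in which no formyl peptide receptor gene passed 3 estimated fragments.

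Plasmin generation, which annexin A2 promotes at the cell surface, had 5 of 7 genes higher in mNRPCs, none lower, and 2 under 1 FPKM in both libraries, where 24.5% of all genes were higher and 30% lower. The number higher was 4 after rescaling to the same sum, with a pseudocount of 5 or with a minimum of 5 FPKM. Plau, the gene of urokinase, had 19.6 FPKM in mNRPCs against 0.269 in retina (72.9-fold, 26.2 to 376, on an estimated 3.17 retina fragments). Plat, the gene of tissue plasminogen activator, was at 56.2 and 3.78 FPKM (14.9-fold, 11.1 to 20.3), and Plaur, the urokinase receptor gene, at 7.50 and 0.286 FPKM (26.2-fold, 7.55 to 238, on an estimated 2.17 retina fragments). The log2 ratio of Plaur was 2.73, and 1.82 with curated rows only. Plgrkt, the gene of a plasminogen receptor, was at 63.6 and 18.3 FPKM (3.47-fold, 2.77 to 4.40). Plg, the gene of plasminogen itself, had under 1 fragment in retina (0.0533 FPKM) and was listed at 0 in mNRPCs. Serpinb2 had 0.235 FPKM in mNRPCs and was listed at 0 in retina.

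Membrane repair and annexin-binding genes had 12 of 14 genes in the table higher in mNRPCs, 1 lower and 1 within 2-fold, against 24.5% higher and 30% lower over all genes, with a median log2 ratio of 2.17. On the log2(FPKM + 1) scale the largest ratio was that of Ehd2 (5.14), a caveolar ATPase, at 115 FPKM in mNRPCs and 2.29 in retina (50.4-fold, 39.0 to 66.4). Ahnak, the scaffold that binds annexin A2 with S100A10, was at 45.4 and 0.491 FPKM (92.5-fold, 63.1 to 137), a larger fold but a log2 ratio of 4.96, which was 4.56 with curated rows only and 4.04 with the highest row only. Myof, the gene of the repair protein myoferlin, was at 50.0 and 1.07 FPKM (46.5-fold, 33.2 to 65.4). Of the known binding partners of Anxa7 and Anxa11, Sri (sorcin) was at 47.0 and 9.70 FPKM (4.85-fold) and Pdcd6 (ALG-2) at 45.1 and 12.4 FPKM (3.65-fold). Trim72 was lower, with 1.38 FPKM in retina and under 1 fragment in mNRPCs (0.0591 FPKM), at least 5.26-fold lower. Its log2 ratio of −1.17 was −0.88 with curated rows or the highest row only and −0.34 with a pseudocount of 5, so that no gene of the list was then past 2-fold lower. Chmp4b, of the membrane-sealing ESCRT machinery, was within 2-fold, at 159 and 123 FPKM. Pdcd6ip, at a log2 ratio of 1.04, fell to 0.55 after rescaling to the same sum, 0.92 with upper quartile scaling and 0.87 with a pseudocount of 5. Dysf, the gene of the repair protein dysferlin, had 2.25 FPKM in mNRPCs against 0.204 in retina. The log2 ratio of Dysf, 1.43, was 0.64 with curated rows only, 0.33 with the highest row only and 0.48 with a pseudocount of 5. The number of higher genes in the list was 10 with a pseudocount of 5 and 11 under each of the other settings named here.

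**Figure D5:**
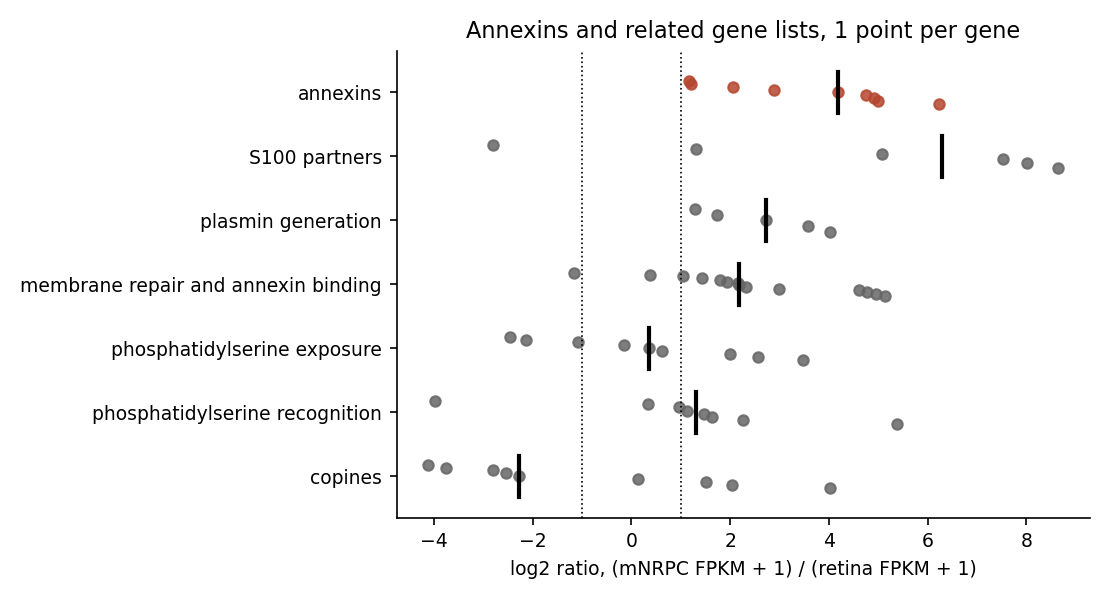
Log2 ratio of (mNRPC FPKM + 1) to (retina FPKM + 1), 1 point per gene with at least 1 FPKM in a library, for annexins and 6 related lists, with bars at the list medians and dotted lines at 2-fold. The annexins have a median of 4.18 and the S100 partners of 6.30, while the copines, another family of calcium-dependent lipid-binding proteins, have a median of −2.29.

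The genes nearest to the leading annexins in the plane of log2(FPKM + 1) in both libraries were looked up, as a description over 2 libraries only. Nearest to Anxa2 were Serpinh1 (822 and 5.46 FPKM in mNRPCs and retina, distance 0.72), Bst2 (1310 and 8.14 FPKM, distance 0.76) and H2-K1 (704 and 18.2 FPKM, distance 0.87). Nearest to Anxa5 were H2-D1 (665 and 36.1 FPKM, distance 0.15), Fdps (629 and 47.8 FPKM, distance 0.35) and Sparc (667 and 52.0 FPKM, distance 0.43). H2-K1 and H2-D1 belong to a family of near-identical genes, so that their values are uncertain in both libraries.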

How the data were processed

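RNA sequencing of 2 mouse samples was used, 1 mNRPC library and 1 retina library. The deposited values were FPKM per RefSeq transcript, made by the authors. The submitters' processing notes name TopHat2 2.0.10 and GRCm38.p3, and the labels an Illumina protocol. The study's methods name Bowtie 2 and eXpress for sequencing of treated mNRPCs on another platform. Whether eXpress also computed the FPKM used here, and from which annotation release, was not given in the sources used here. Accessions without version were matched to RefSeq (GRCm38.p6), then to GENCODE M21, which named 74283 of 106754 rows (69.6%, holding 93.2% of mNRPC and 89.9% of retina FPKM). Predicted rows were matched in 55.8%, so annexin transcripts among unmatched rows would be missed. Values below 1e-06 were read as 0, and rows of a gene were summed.

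Genes with at least 1 FPKM in a library were compared, with a pseudocount of 1. A gene past 2-fold was counted as higher or lower. Depth was taken from the value at which single-fragment rows gather, over transcripts of at least 1500 bp of genes with 1 row, with GENCODE lengths. With limits of 500 and 2500 bp it was 6.34e+06 and 6.46e+06 fragments in mNRPCs, and 4.86e+06 and 5.31e+06 in retina. Rows without a length took the median of their gene. The depth and scaling steps were tested on simulated data. Python 3.11.15, pandas 2.3.3, numpy 2.4.6 and scipy 1.17.1 were used.

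The members and lists were chosen with earlier results of these data known. Named genes were the members, Anxa10 and Anxa13, the genes of each related list with the largest and smallest log2 ratio, all genes counted in a group of 5 or fewer, and the 3 genes nearest to the annexin highest in each library. Ahnak, Dysf, Myof, Sri, Pdcd6, Pdcd6ip and the marker genes Col3a1, Lum, Pdgfrb, Rgs5, Rax, Kdr and Rlbp1 were chosen after their values were seen. Annexin proteins were not analysed here. Some list genes that this rule names are not reported here. Alternatives for pseudocount, scaling, rows, filter and threshold were tried.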

Additional observations from a re-analysis of the deposited data

How the results depend on the processing

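No detected annexin changed direction under any alternative run, and none was lower in mNRPCs by 2-fold. Of the 10 members, the number higher by 2-fold was 9 as reported, between 7 and 9 under the alternatives, with 7 after rescaling to the same sum, which took Anxa7 and Anxa9 under the threshold. The median log2 ratio of the 10 members, 3.54 with Anxa8 included, was 2.65 with a pseudocount of 5 and 3.04 after rescaling to the same sum. This median of 10 members minus the all-gene median stood at 3.66 in the deposited scale and 3.61 after that rescaling, although the all-gene median itself went from −0.12 to −0.58 and the share of higher genes among those past 2-fold from 44.9% to 31.4%. Among single members 51 of 70 values stayed within counting error and 19 moved in size. With curated rows only, the annexin share of total FPKM was 0.420% in mNRPCs and 0.0289% in retina. Of the 52 related genes compared 34 were higher and 11 lower (24.5% and 30% of all genes). With a pseudocount of 5 or after rescaling to the same sum 29 were higher, and at a 4-fold threshold 22 (11.2% of all genes), and with a pseudocount of 5 or a minimum of 5 FPKM 6 and 7 were lower, fewer by construction. Depth limits Anxa8 and the retina values of Anxa3, Anxa4 and Anxa9, which rest on under 15 estimated fragments. No paired analysis was possible because only 1 library stood for either group.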

Other observations

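Other genes around phosphatidylserine, the lipid that annexins bind, were looked at next. Of the genes that expose or hide it, 9 could be compared. By 2-fold, 3 were higher in mNRPCs, 3 lower and 3 neither, among them Tmem30a and Xkr8. These shares were close to those of all genes compared, of which 24.5% were higher and 30% lower. The scramblase-family genes Plscr3 (46.4 FPKM in mNRPCs and 3.25 in retina) and Plscr1 (33.7 and 4.86 FPKM) were higher, as was Ano6 (15.1 and 3.06 FPKM). The flippase genes Atp11a (12.2 and 71.3 FPKM) and Atp8a1 (5.51 and 12.8 FPKM) were lower, as was Xkr4, which was listed at 0 in mNRPCs against 3.40 FPKM in retina. With curated rows only, the log2 ratio of Xkr4 went from −2.14 to 0 and that of Plscr3 from 3.48 to 2.07. Atp8a1 and Xkr4 were not past 2-fold with a pseudocount of 5 (−0.76 and −0.75), and Atp8a1 was at −0.64 with the highest row only. Among genes that recognise phosphatidylserine, 5 of 8 were higher and 1 was lower (24.5% and 30% over all genes), with Mfge8 and Tyro3 within 2-fold. The receptor gene Axl had 158 FPKM in mNRPCs against 2.85 in retina (55.7-fold, 43.3 to 73.0), but its log2 ratio of 5.37 was 1.29 with curated rows only, so most of the difference lay on predicted rows. The other higher genes were Itgav (46.5 and 8.96 FPKM), Mertk (8.14 and 1.94 FPKM), Itgb5 (37.9 and 13.0 FPKM) and Pros1 (14.9 and 6.29 FPKM). The number of higher genes was 3 in place of 5 with curated rows only (Mertk 0.93 and Pros1 0.90 on the log2 scale), with a pseudocount of 5 (Mertk 0.92 and Pros1 0.82) and after rescaling to the same sum (Itgb5 0.98 and Pros1 0.65). Tyro3, at 0.95, was at −0.28 with curated rows and at 1.49 with the highest row only. The lower gene was Gas6, the ligand gene of Axl, with 4.07 against 79.6 FPKM, a 19.5-fold difference.

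The copines, another family of calcium-dependent lipid-binding proteins, were compared in the same way. Of 9 genes 3 were higher in mNRPCs, 5 were lower and Cpne8 was within 2-fold, with a median log2 ratio of −2.29, where 24.5% of all genes were higher and 30% lower. The number lower was 3 with a pseudocount of 5 or a minimum of 5 FPKM. The higher genes were Cpne2 (34.5 and 1.18 FPKM), Cpne3 (38.4 and 8.59 FPKM) and Cpne1 (27.9 and 9.15 FPKM). Cpne6, a neuronal copine, had 17.1 FPKM in retina and under 1 fragment in mNRPCs, at least 80.7-fold less. Retina held 4.79 FPKM of Cpne5 and 12.6 FPKM of Cpne7, both listed at 0 in mNRPCs, with 4.09 FPKM of Cpne4 and 6.38 FPKM of Cpne9, both under 2 fragments in mNRPCs. The difference between copines and annexins was not tested.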
